A study of Mus musculus with 10 samples.

Results

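The genes described here are 10 genes of motor neuron identity and of acetylcholine handling, taken by symbol from a table of 42465 gene models in cultured mouse neural tube explants. They are the transcription factor genes Lhx3, Lhx4, Mnx1, Isl1, Isl2 and Olig2 and the cholinergic genes Chat, Slc5a7, Slc18a3 and Ache. All 10 were found, each in 1 row, and all 10 passed the filter on low values, which asks that 5 or more of the 10 libraries reach an FPKM of 0.5 (FPKM counts the fragments of a gene relative to its length and to the size of the library). The explants came from embryos at embryonic day 9.5 and contained neural crest cells. There were 5 WT and 5 Ednrb-/- biological replicates. Both groups were kept for 4 days in culture with 20 nM EDN3, a ligand of endothelin receptor type B, and 10% fetal bovine serum. Which part of Ednrb is missing in the Ednrb-/- explants, and how many embryos gave each library, the labels do not say. No explant was sorted, so each value is an average over all cell types of the explant.

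Motor neurons are born in the ventral neural tube from progenitors that express Olig2. As they leave the cell cycle they switch on the LIM homeodomain factors Lhx3, Lhx4, Isl1 and Isl2 and the homeodomain factor Mnx1. In motor neurons Lhx3 and Isl1 act together in a complex held by the cofactor Ldb1, whereas in the neighbouring V2 interneurons Lhx3 acts with Ldb1 without Isl1. The complex of motor neurons switches on the cholinergic genes. Chat makes acetylcholine, Slc18a3 loads it into synaptic vesicles, Ache breaks it down in the synaptic cleft, and Slc5a7 takes the released choline back up.

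The promoters of 3 genes are shown, picked after their values were seen. Lhx3 is the one gene of the 10 that passed the test. Slc18a3 and Slc5a7 did not pass: the level of Slc18a3 followed that of Lhx3 over the libraries, and the value of Slc5a7 went the other way. Each promoter is the 250 bases before a start site in RefSeq on GRCm38.p6, read 5′ to 3′ on the strand of the gene, which is the minus strand for all 3. They lie at chr2:26206576-26206825, chr14:32464851-32465100 and chr17:54299035-54299284. Capitals mark TAAT on either strand, the core that homeodomain proteins bind, and CANNTG, the E-box bound by bHLH proteins such as Olig2.
Lhx3: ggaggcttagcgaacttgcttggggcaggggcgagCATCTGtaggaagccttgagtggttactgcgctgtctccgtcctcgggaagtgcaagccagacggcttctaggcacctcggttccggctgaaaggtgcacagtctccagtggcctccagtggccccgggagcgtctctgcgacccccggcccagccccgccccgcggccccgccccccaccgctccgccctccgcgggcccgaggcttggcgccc
Slc18a3: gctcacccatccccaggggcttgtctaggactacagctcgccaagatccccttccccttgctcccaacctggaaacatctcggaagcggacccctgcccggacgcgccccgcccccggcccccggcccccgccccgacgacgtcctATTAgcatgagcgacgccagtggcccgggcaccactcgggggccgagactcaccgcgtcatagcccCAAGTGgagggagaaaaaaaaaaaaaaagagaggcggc
Slc5a7: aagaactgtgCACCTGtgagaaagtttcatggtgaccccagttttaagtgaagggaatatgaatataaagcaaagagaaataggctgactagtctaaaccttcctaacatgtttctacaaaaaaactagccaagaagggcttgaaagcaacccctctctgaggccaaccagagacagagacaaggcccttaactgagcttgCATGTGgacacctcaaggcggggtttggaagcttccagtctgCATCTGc
RefSeq gives Lhx3 a further start upstream, so the 10 genes have 11 such windows. The upstream window of Lhx3, at chr2:26208250-26208499, is not printed. It held TAAT 1 time and CANNTG 0 times, at a GC content of 62.0%. TAAT was found in 5 of the 11 windows and in 54.9% of all 32851 windows of the same length, and CANNTG in 7 of the 11 and in 66.2% of all. The longer homeodomain site TAATTA was in 0 of the 11 and in 4.84% of all. The window of Slc5a7 had a GC content of 45.6%, those printed for Lhx3 and Slc18a3 70.8% and 66.0%, and the median over all windows was 52.4%. These matches describe the letters of the windows and are not measured binding sites.

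In the libraries themselves, Ednrb held between 43.8 and 60.7 FPKM in WT and between 2.34 and 11.7 FPKM in Ednrb-/- explants, so every Ednrb-/- library was below every WT library. Reads worked back from the FPKM values came to between 13022266 and 19532570 per library. The test throughout is limma on log2(FPKM + 0.5), and a fold change is Ednrb-/- over WT on that scale, on which changes of genes near 0.5 FPKM come out too small. P values are adjusted by Benjamini-Hochberg over 15156 genes, of which 19.5% changed, 990 upward in Ednrb-/- (6.53%) and 1966 downward (13.0%). The explants held neurons: the summed level of 13 pan-neuronal genes ran from 1474 to 1834 FPKM in WT and from 2293 to 2623 FPKM in Ednrb-/- libraries. Mean levels of the 10 motor neuron and cholinergic genes ran from 1.00 FPKM for Chat to 8.83 FPKM for Ache in WT. Of 13 genes of skeletal muscle, which also makes Ache, 5 were tested, with a summed level from 12.6 to 52.8 FPKM in WT and from 1.67 to 13.4 FPKM in Ednrb-/- libraries. Of these 5, Actc1, Acta1 and Des fell, and Pax7 and Tnni1 did not pass. The muscle regulators Myod1 and Myog were below the filter, at most at 0.218 and 1.28 FPKM, both in Ednrb-/- replicate 1. Among the untested genes of the list, the means of Myod1, Myog, Myf6, Myh3 and Tnnt1 were higher in Ednrb-/- libraries. Those of Myf5, Myh8 and Chrng were higher in WT libraries. The part of muscle cells in the level of Ache was not tested. In these bulk libraries fewer cells of a type and less RNA per cell cannot be told apart.

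Of the 10 genes, 1 rose in Ednrb-/- explants and 0 fell, beside 6.53% and 13.0% of all genes tested. At an unadjusted p under 0.05 by limma 3 were higher and 1 was lower, beside 14.2% and 18.9% of all genes tested. By voom on the recovered reads 3 were called higher and 0 lower, beside 8.09% and 12.6%. The gene that rose was Lhx3. Lhx4, Mnx1 and Slc18a3 had positive fold changes of similar size that missed the threshold, Slc5a7 had a negative one that missed it narrowly, and Isl1, Isl2, Olig2, Chat and Ache did not pass with smaller values. The median log2 fold change of the 10 was 0.30, beside 0.0048 over all genes tested and 0.54 over the pan-neuronal list. The plot of FPKM by library shows all values.

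**Figure D1:**
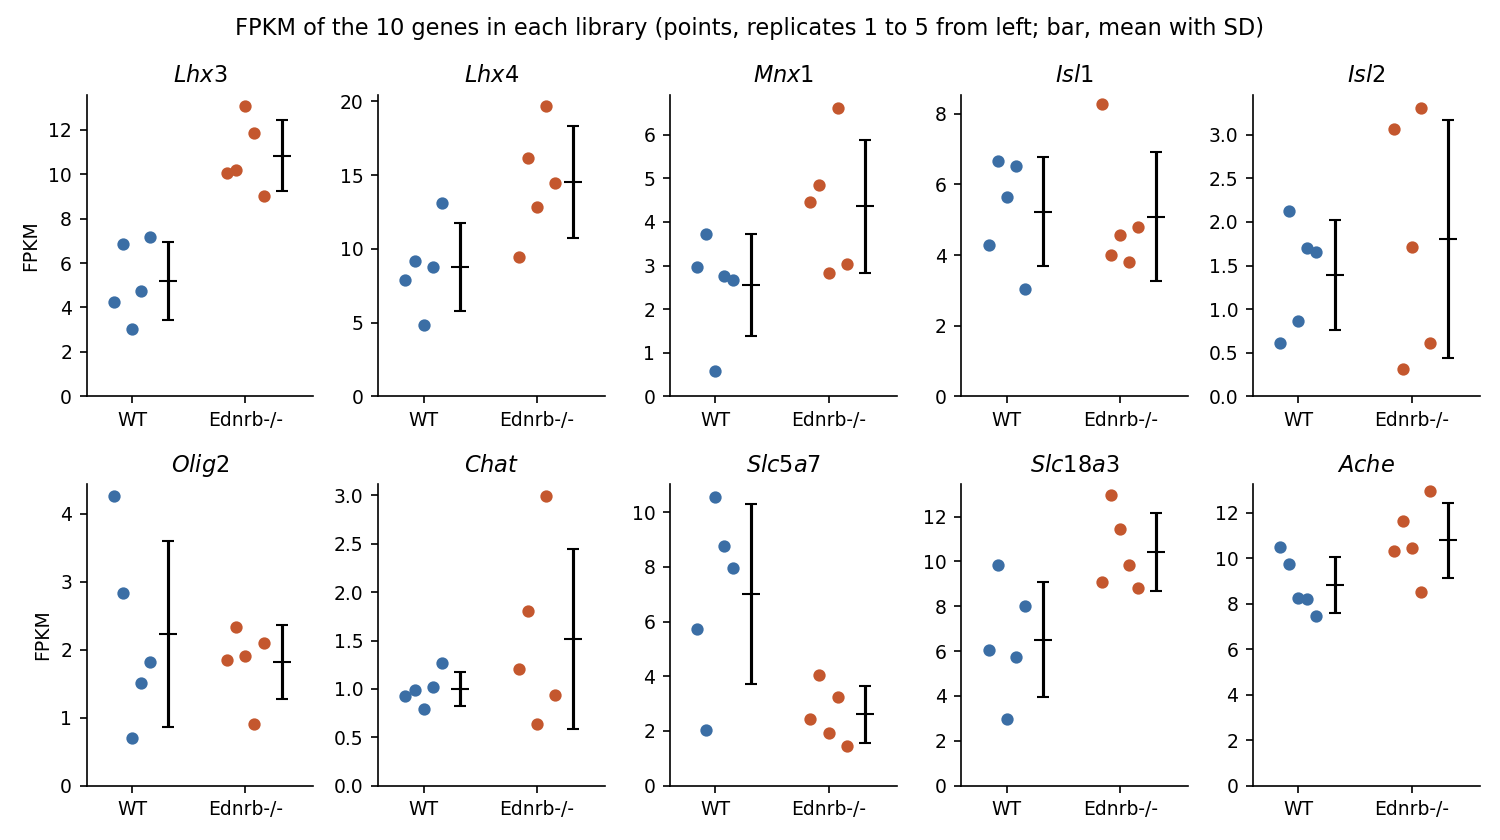
FPKM of each of the 10 genes (vertical axis, from 0, own scale per panel) in the 5 WT and 5 Ednrb-/- libraries, with points in order of replicate number and the mean with SD beside them. Lhx3 alone has groups that do not overlap, and Slc5a7 has 4 WT libraries above every Ednrb-/- library and 1 below 3 of them.

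Lhx3 (MGP_C57BL6NJ_G0025895, chromosome 2 from 24923991 to 24932068, minus strand, on the assembly of the strain C57BL/6NJ, as for every gene below) is the LIM factor of early motor neurons and V2 interneurons. It held 4.24, 6.83, 3.05, 4.76 and 7.18 FPKM in WT replicates 1 to 5 and 10.0, 10.2, 13.1, 11.9 and 9.02 FPKM in Ednrb-/- replicates 1 to 5. Every Ednrb-/- library was above every WT library, as for 4.78% of all genes tested, while the reverse held for 8.44% of them. On average this was 5.21 ± 1.75 FPKM against 10.8 ± 1.61 FPKM (SD, n = 5 each), a ratio of 2.08. The log2 fold change was 1.03 with a standard error of 0.20 (limma, adjusted p = 0.00623; exact two-sided permutation p = 0.00794, and no smaller p is possible with 10 libraries). Leaving out any 1 library kept the adjusted p between 0.00311 and 0.0193. Relative to the mean of the pan-neuronal genes in the same library, a scale on which the median gene stood at -0.50, the log2 fold change of Lhx3 was 0.53 with a standard error of 0.21 (limma, adjusted p = 0.0460). With the mean of the smooth muscle genes as a covariate it was 0.61 with a standard error of 0.37 (limma, adjusted p = 0.715), a fit in which 0 of 15156 genes passed and 1141 had an unadjusted p under 0.05. An antisense model, Gm27196, overlaps Lhx3 over 1588 bases and had mean levels of 0.434 FPKM (WT) and 1.14 FPKM (Ednrb-/-). Whether counting used strand is not given, so reads of the pair may be mixed.

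Lhx4, the closest relative of Lhx3 (MGP_C57BL6NJ_G0017018, chromosome 1 from 166154831 to 166209449, minus strand), had the highest level of the 6 transcription factor genes in both genotypes. WT replicates held 7.86, 9.21, 4.83, 8.77 and 13.1 FPKM and Ednrb-/- replicates 9.45, 16.2, 12.9, 19.7 and 14.5 FPKM. Of the Ednrb-/- libraries 3 were above all WT libraries; WT replicate 5 was high and Ednrb-/- replicate 1 low. Its log2 fold change was 0.72, with a 95% interval from 0.19 to 1.26 (limma, adjusted p = 0.0574; exact two-sided permutation p = 0.0238). It passed in 4 of 21 alternative fits: without WT replicate 5 (0.0318) or without Ednrb-/- replicate 1 (0.0294), under quantile normalization (0.0413) and by voom on the recovered reads (0.0346). It did not pass with array weights (0.112), with a replicate block (0.0508) or relative to the pan-neuronal mean (0.407). Without single libraries its adjusted p ran from 0.0294 to 0.117. Lhx4 stood at 1.69 ± 0.222 times Lhx3 in WT and 1.36 ± 0.360 times in Ednrb-/- libraries (SD, n = 5 each), which did not separate the genotypes (exact two-sided permutation p = 0.175).

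Mnx1, which holds motor neurons apart from V2 interneurons (MGP_C57BL6NJ_G0029806, chromosome 5 from 29065040 to 29070476, minus strand), was at a lower level. WT replicates held 2.97, 3.73, 0.594, 2.77 and 2.67 FPKM and Ednrb-/- replicates 4.45, 4.84, 2.84, 6.61 and 3.03 FPKM. WT replicate 3 was far below the other libraries, with 21 reads. The log2 fold change of 0.75 had a 95% interval from -0.02 to 1.51 (limma, adjusted p = 0.162; exact two-sided permutation p = 0.0556), and without WT replicate 3 it was 0.41 (adjusted p = 0.271).

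Isl1 and Isl2, the LIM factors that set motor neurons apart from V2 interneurons, had no common direction. Isl1 (MGP_C57BL6NJ_G0021347, chromosome 13 from 122600050 to 122611356, minus strand), which sensory and sympathetic neurons also express, held 4.28, 6.66, 5.64, 6.53 and 3.05 FPKM in WT and 8.27, 3.99, 4.58, 3.80 and 4.78 FPKM in Ednrb-/- replicates 1 to 5. The groups overlapped nearly whole, with the highest value of all in Ednrb-/- replicate 1. Isl1 had a log2 fold change of -0.04, with a 95% interval from -0.56 to 0.48 (limma, adjusted p = 0.927), an interval that leaves out a rise of the size estimated for Lhx3. Isl2 (MGP_C57BL6NJ_G0035335, chromosome 9 from 56160821 to 56168329, plus strand) held 0.609, 2.12, 0.870, 1.70 and 1.66 FPKM in WT and 3.06, 0.315, 1.72, 3.31 and 0.617 FPKM in Ednrb-/- replicates. Its spread within Ednrb-/- covered the whole WT range. The interval of its log2 fold change, 0.11, ran from -0.86 to 1.08 (limma, adjusted p = 0.894) and so holds both the value of Lhx3 and 0.

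Olig2, the bHLH factor of motor neuron progenitors and later of oligodendrocyte precursors (MGP_C57BL6NJ_G0023453, chromosome 16 from 95210285 to 95213412, plus strand), varied more in WT than in Ednrb-/- libraries. It held 4.26, 2.84, 0.705, 1.51 and 1.82 FPKM in WT and 1.84, 2.33, 1.90, 0.908 and 2.10 FPKM in Ednrb-/- replicates. No Ednrb-/- library lay outside the WT range. Olig2 had a log2 fold change of -0.12, with a 95% interval from -0.87 to 0.62 (limma, adjusted p = 0.839). Olig1, its neighbour gene of the same family, had a mean of 2.23 ± 1.81 FPKM over WT and of 0.807 ± 0.363 FPKM over Ednrb-/- libraries (SD, n = 5 each) and did not pass (limma, adjusted p = 0.159).

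Chat and Slc18a3 form one locus on chromosome 14. The model of Slc18a3 (MGP_C57BL6NJ_G0021530, from 26732713 to 26735125) spans 2413 bases, all of them inside the model of Chat (MGP_C57BL6NJ_G0021529, from 26672598 to 26736183), on the same minus strand. The start sites of the pair in RefSeq are 1059 bases apart on GRCm38.p6. Ednrb lies on the same chromosome, 77636370 bases away.

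Slc18a3, the vesicular acetylcholine transporter gene, was the cholinergic gene with the profile closest to Lhx3. WT replicates held 6.03, 9.83, 2.98, 5.73 and 8.01 FPKM and Ednrb-/- replicates 9.11, 12.9, 11.4, 9.85 and 8.82 FPKM. Of the WT libraries only replicate 2 reached into the Ednrb-/- range. The log2 fold change of 0.72, with a 95% interval from 0.17 to 1.26, missed the threshold (limma, adjusted p = 0.0668; exact two-sided permutation p = 0.0238). It passed in 4 of 21 alternative fits: without WT replicate 2 (0.0213), under quantile normalization (0.0470), with array weights (0.0418) and by voom (0.0407). It did not pass relative to the pan-neuronal mean (0.446), and without single libraries its adjusted p ran from 0.0213 to 0.133.

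Chat, the synthesis enzyme, had the lowest mean of the 10 genes in both genotypes. WT replicates held 0.928, 0.989, 0.792, 1.02 and 1.27 FPKM, and Ednrb-/- replicates 1.20, 1.80, 0.641, 3.00 and 0.942 FPKM, on 33 to 137 reads per library. The WT values were close together, and the Ednrb-/- values ran both below and above them. Chat had a log2 fold change of 0.32, with a 95% interval from -0.29 to 0.93 (limma, adjusted p = 0.460), and 0.10 without Ednrb-/- replicate 4. In FPKM, Slc18a3 stood at 6.43 ± 2.24 times Chat in WT and at 9.04 ± 5.38 times in Ednrb-/- libraries (SD, n = 5 each; exact two-sided permutation p = 0.444). A long non-coding RNA model on the other strand, Gm2990, overlaps the model of Chat over 867 bases. It had mean levels of 1.52 FPKM (WT) and 2.69 FPKM (Ednrb-/-), so reads of Chat and Gm2990 may be mixed, as for Lhx3.

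Slc5a7, the high affinity choline transporter gene (MGP_C57BL6NJ_G0024299, chromosome 17 from 58067774 to 58096404, minus strand), had the lowest log2 fold change of the 10, 3 of which were below 0. WT replicates held 5.73, 2.02, 10.6, 8.75 and 7.97 FPKM and Ednrb-/- replicates 2.44, 4.05, 1.91, 3.23 and 1.44 FPKM. Without WT replicate 2 the groups would not overlap. On average this was 7.01 ± 3.28 FPKM against 2.61 ± 1.04 FPKM (SD, n = 5 each), 2.68 times as high in WT. Its log2 fold change, -1.17 (standard error 0.38), missed the threshold (limma, adjusted p = 0.0501; exact two-sided permutation p = 0.0397). It passed in 6 of 21 alternative fits. They were those without WT replicate 2 (-1.53, limma, adjusted p = 0.00241), without Ednrb-/- replicate 2 (0.0455), with a pseudocount of 1 (0.0476) and with a filter of FPKM 1 (0.0472). The others were with array weights (0.00219) and relative to the pan-neuronal mean (0.00366). On that last scale the median gene stood at -0.50 and 8880 of 15156 genes were lower. Without single libraries the adjusted p of Slc5a7 ran from 0.00241 to 0.121.

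The opposite values of the choline transporter and the vesicular transporter were also compared within libraries, a ratio chosen after their values were seen. Slc5a7 over Slc18a3 was 0.950, 0.206, 3.55, 1.53 and 0.995 in WT replicates 1 to 5 and 0.268, 0.313, 0.167, 0.328 and 0.164 in Ednrb-/- replicates 1 to 5. Of the WT libraries 4 had a higher ratio than any Ednrb-/- library. The difference in the mean log2 ratio, Ednrb-/- minus WT, was -2.09, a description with no test.

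Slc5a7 followed the smooth muscle genes over the libraries. In WT its order, lowest in replicate 2, then 1, 5, 4 and 3, was also that of Acta2, the smooth muscle actin gene. Cnn1, Myl9, Tpm1, Cald1 and Lmod1 shared that WT order, and Tagln, Tpm2 and Smtn did not. In Ednrb-/- the orders of Slc5a7 and Acta2 differed: Slc5a7 was highest in replicate 2 and Acta2 in replicate 4, while both were lowest in replicate 5. After centring within genotype the correlation of Slc5a7 with the mean of 9 smooth muscle genes was 0.919 over the 10 libraries, a description with no test, and that of the other 9 members ran from -0.624 for Ache to 0.492 for Chat. All 9 of those smooth muscle genes fell, and their summed level ran from 373 to 2770 FPKM in WT and from 66.8 to 350.1 FPKM in Ednrb-/- libraries. With their mean as a covariate the log2 fold change of Slc5a7 was 0.66 (limma, adjusted p = 0.684), a fit in which 0 of 15156 genes passed. That mean ran from 4.01 to 6.43 on the log2 scale in WT and from 2.15 to 3.92 in Ednrb-/- libraries. The groups do not overlap in it, so the fit separates it poorly from genotype. The part of these cells in the level of Slc5a7 was not tested.

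Ache, the acetylcholine esterase gene (MGP_C57BL6NJ_G0030650, chromosome 5 from 147276814 to 147290251, plus strand), had the smallest standard error of the 10, 0.13 on the log2 scale. It held 10.5, 9.73, 8.23, 8.21 and 7.47 FPKM in WT and 10.3, 11.7, 10.5, 8.52 and 13.0 FPKM in Ednrb-/- replicates. Ednrb-/- replicates 2 and 5 were above all WT libraries, and the other 3 were not. Ache had a log2 fold change of 0.27, with a 95% interval from -0.01 to 0.55 (limma, adjusted p = 0.163; exact two-sided permutation p = 0.0635). It passed in 1 of 21 alternative fits, with array weights (0.0362).

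**Figure D2:**
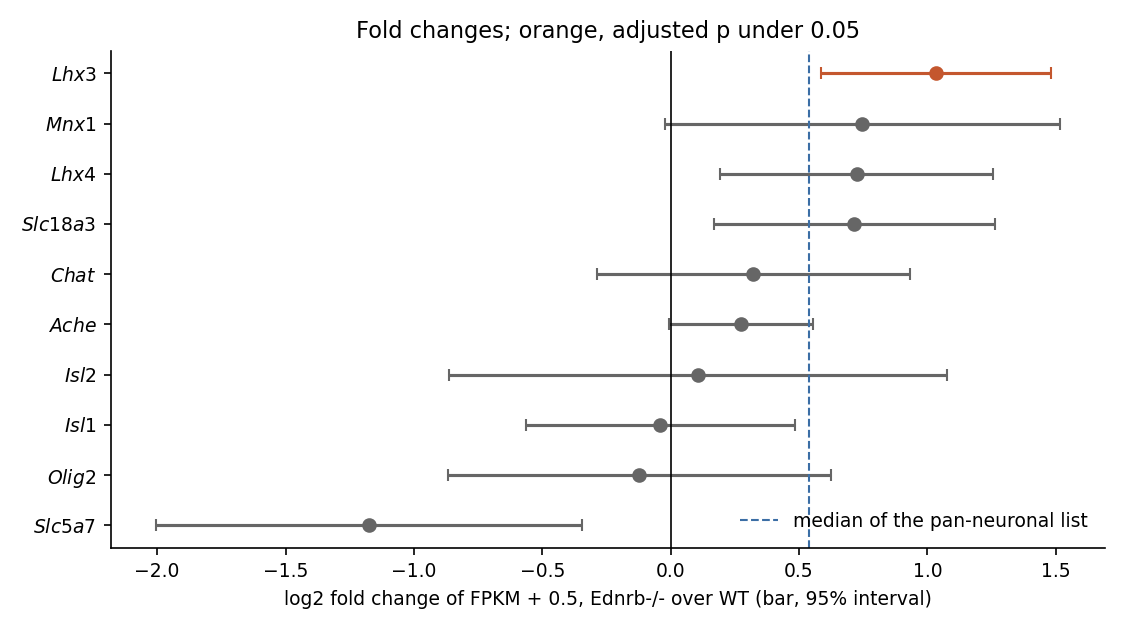
Log2 fold change of each gene on the log2(FPKM + 0.5) scale (horizontal axis, Ednrb-/- over WT) with its 95% interval, ordered by size, and the median of the pan-neuronal list as a dashed line at 0.54. Lhx3 (1.03, orange) is the gene with an adjusted p under 0.05, and Slc5a7 (-1.17) the gene at the other end.

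The order of the levels differed between the genotypes mainly in its upper part. In WT it was Ache (8.83 FPKM), Lhx4, Slc5a7, Slc18a3, Isl1, Lhx3, Mnx1, Olig2, Isl2 and Chat (1.00 FPKM). Between neighbours in that order the gap was larger than the larger of their SDs only from Lhx3 to Mnx1. In Ednrb-/- it was Lhx4 (14.5 FPKM), Lhx3, Ache, Slc18a3, Isl1, Mnx1, Slc5a7, Olig2, Isl2 and Chat (1.52 FPKM), with such gaps from Slc18a3 to Isl1 and from Mnx1 to Slc5a7. Slc5a7 stood higher in the WT order than in the other, and Lhx3 lower.

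Libraries differed in the same sense over several of the genes. WT replicate 3 was the lowest of all 10 libraries for Lhx3, Lhx4, Mnx1, Olig2 and Slc18a3, and the highest for Slc5a7. It also had the highest smooth muscle mean. Ednrb-/- replicate 4 was the highest of all libraries for Lhx4, Mnx1, Isl2 and Chat. After centring within genotype, the Pearson correlations over the 10 libraries, which share depth and cell makeup and are given as descriptions, were 0.868 between Lhx3 and Slc18a3, 0.712 between Lhx3 and Lhx4, 0.754 between Mnx1 and Slc18a3 and 0.678 between Lhx4 and Mnx1. By Spearman rank the same pairs stood at 0.818, 0.661, 0.479 and 0.636, and WT replicate 3 held the lowest value of each of these genes. By Pearson, Isl1 went against Lhx4, at -0.680. Olig2 was closest to Ache, at 0.749.

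Genes outside the 10 with the most similar centred profile, the highest Pearson correlation over the 10 libraries among protein-coding genes, were named for each. Every value was picked from the highest over all tested protein-coding genes, and is a description with no test. For Lhx3 they were Nell1 (0.905), Zfp647 (0.895) and the neurofilament gene Nefm (0.891). Among the genes nearest to Lhx4 were Nefm (0.918) and Entpd5 (0.913). Mnx1 was nearest to the neuronal bHLH gene Neurod4 (0.972), Slc18a3 to the neuronal bHLH gene Nhlh2 (0.971), Chat to Nr1h3 (0.967), Ache to the synaptic vesicle gene Rab3a (0.982) and Olig2 to Tmeff1 (0.979). For Isl1 it was Tomm40 (0.905) and for Isl2 Ppt2 (0.948). The nearest to Slc5a7 were Abcg2 (0.992), Eif2ak2 (0.981) and Degs1 (0.978), which all fell, with log2 fold changes of -1.77, -1.28 and -1.06 (limma, adjusted p = 0.00774, 0.0101 and 0.0103).

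**Figure D3:**
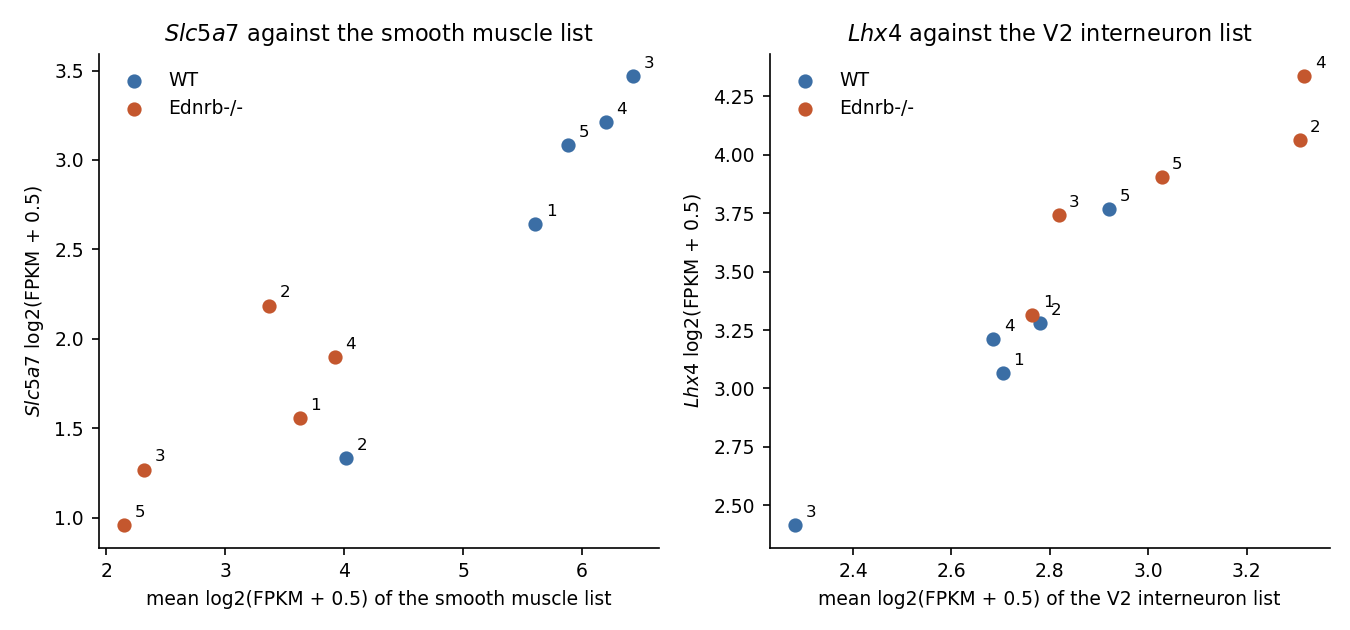
Left, log2(FPKM + 0.5) of Slc5a7 against the mean of the smooth muscle list on the same scale; right, that of Lhx4 against the mean of the V2 interneuron list, 1 numbered point per library (blue WT, orange Ednrb-/-). WT replicate 3 has the highest smooth muscle mean and Slc5a7 level, and the lowest V2 mean and Lhx4 level.

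Around the 10 genes, progenitor and V2 genes mostly had positive fold changes with few calls. Of 13 genes of ventral progenitor domains and floor plate 1 rose, Nkx6-2, and 0 fell (0 at an unadjusted p under 0.05 by limma and 0 by voom), with a median log2 fold change of 0.40. The count of rises was 3 without WT replicate 2 and 4 without Ednrb-/- replicate 1. Without WT replicate 3, 1 of 12 tested genes rose and 1 fell. Nkx6-1, which the motor neuron domain needs, held a mean of 9.63 ± 3.58 FPKM over WT libraries and of 17.0 ± 5.18 FPKM over Ednrb-/- libraries (SD, n = 5 each), which did not pass (limma, adjusted p = 0.0739). The floor plate signal gene Shh had a log2 fold change of 1.41 (adjusted p = 0.116) and Pax6 one of 0.40 (0.0926). Of 8 V2 interneuron genes 1 rose and 1 fell, with a median of 0.54; without Ednrb-/- replicate 1 the count of rises was 4, and without WT replicate 3, 4 or 5 or Ednrb-/- replicate 3 or 5 it was 0. Foxn4, a factor of V2 progenitors, rose from 0.566 ± 0.106 to 1.52 ± 0.632 FPKM (limma, adjusted p = 0.0250), a call lost without WT replicate 3, 4 or 5 or Ednrb-/- replicate 3 or 5 (0.0511 to 0.0631). Gata3, of V2b interneurons and sympathetic neurons, fell by 0.88 on the log2 scale (0.0482), a call lost without WT replicate 1, 3, 4 or 5 or Ednrb-/- replicate 1 or 2 (0.0573 to 0.114). Shox2, of V2a interneurons, did not pass at a log2 fold change of 0.66 (limma, adjusted p = 0.0574).

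Among the other LIM homeodomain genes and the cofactors of their complexes, 2 of 16 rose and 2 fell, with a median of 0.17; without WT replicate 2 these counts were 4 and 3. Lhx1, a factor of several interneuron classes and of lateral motor neurons, rose from a mean of 42.4 ± 6.13 to one of 69.7 ± 12.3 FPKM (SD, n = 5 each), with an adjusted p of 0.00512 by limma, and Lmo3 rose by 0.48 (0.0122). The roof plate gene Lmx1a and the cofactor gene Ldb2 fell, at log2 fold changes of -1.71 and -0.69 (0.00605 and 0.0324). The call of Ldb2 was lost without WT replicate 1, 2 or 5 or Ednrb-/- replicate 1, 3 or 5 (0.05 to 0.0848). Ldb1, the cofactor that Lhx3 and Isl1 bind in motor neurons, averaged 89.5 ± 8.45 FPKM in WT and 85.2 ± 8.25 FPKM in Ednrb-/- explants and did not pass (adjusted p = 0.640).

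Genes of motor neuron columns and subtypes gave 0 rises and 2 falls among 20 (4 rises and 4 falls at an unadjusted p under 0.05 by limma, 1 rise and 3 falls by voom), with a median of 0.17. Etv4, a factor of motor pools that growth factors also induce in other cells, fell by 1.48 on the log2 scale and Tbx2 by 1.63 (limma, adjusted p = 0.00412 and 0.00839). Genes of motor axon growth and guidance were split, with 5 of 25 higher, 3 lower and a median of 0.11. Relative to the pan-neuronal mean, where most genes shift downward, 1 was higher and 13 were lower, and Nefl, Nefm, Stmn2 and Cxcr4 no longer passed (limma, adjusted p = 0.176, 0.25, 0.0668 and 0.379). The 5 were Prph, Nefl, Nefm, Stmn2 and Cxcr4, and the neurofilament gene Nefl rose from a mean of 51.7 ± 11.5 to one of 85.8 ± 13.4 FPKM (SD, n = 5 each), with an adjusted p of 0.0106 by limma. The call of the chemokine receptor gene Cxcr4 was lost without any 1 of WT replicates 3, 4 and 5 or of Ednrb-/- replicates 1, 2, 3 and 5 (0.0584 to 0.0947). The 3 lower genes were the guidance receptor genes Nrp1 (-1.42) and Unc5c (-0.72) and Agrn (-0.45), which encodes the nerve-derived organiser of acetylcholine receptors. The call of Agrn was lost without WT replicate 5 (0.0594). That of Unc5c was lost without WT replicate 2, 3 or 4 or Ednrb-/- replicate 2, 3, 4 or 5 (0.05 to 0.0748). Nrp1 and Agrn are also made by non-neuronal cells.

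Other genes of cholinergic synapses that passed the test were lower. Among 8 tested genes of choline supply, esterase anchoring and the postsynaptic side, 0 rose and 3 fell (1 higher at an unadjusted p under 0.05 by limma and 1 called higher by voom), with a median of -0.33. The choline transporter-like genes Slc44a1 and Slc44a2 fell from 10.5 ± 2.22 to 4.48 ± 1.53 FPKM and from 21.3 ± 2.99 to 14.6 ± 1.51 FPKM (SD, n = 5 each), with adjusted p values of 0.00483 and 0.00852 by limma. Lrp4, the agrin receptor gene, fell by 0.89 (0.0244), a call lost without WT replicate 3 or 4 or Ednrb-/- replicate 5 (0.0521 to 0.0625). Of the 21 acetylcholine receptor genes 10 were tested, of which 0 rose and 2 fell (2 higher at an unadjusted p under 0.05 by limma and 1 called higher by voom); without WT replicate 2 the count of rises was 3. The muscle type subunit gene Chrnb1 fell from 3.30 ± 1.63 to 0.598 ± 0.525 FPKM and the muscarinic receptor gene Chrm4 from 1.36 ± 0.304 to 0.322 ± 0.258 FPKM (limma, adjusted p = 0.00767 and 0.00736). The neuronal subunit genes Chrna7 and Chrnb2 did not pass, with log2 fold changes of 0.47 and 0.35 (0.109 and 0.0603). Of the 10 receptor genes 6 had positive and 4 negative fold changes, with a median of 0.028. Which cells of the explants expressed the cholinergic synapse genes that fell was not tested.

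Genes that most neurons express were higher together. Of 13 pan-neuronal genes 12 rose and 0 fell (0 at an unadjusted p under 0.05 by limma, and 0 by voom), between 8 and 12 of them without single libraries, with Elavl4, Elavl3, Ina and Dcx at log2 fold changes of 0.65, 0.48, 0.55 and 0.42. On the scale relative to their mean, Lhx4, Mnx1 and Slc18a3 had values of 0.22, 0.24 and 0.21, Ache and Chat -0.23 and -0.18, and Isl1, Isl2 and Olig2 -0.54, -0.40 and -0.62, none of which passed. On that scale, on which 37 genes in all were higher and 8880 lower, 0 genes of the ventral progenitor, V2 and LIM lists were higher and 2, 1 and 7 were lower. Sensory and autonomic neuron genes, where Isl1 is also found, gave 0 rises and 1 fall, Gata3, among 12 (3 rises at an unadjusted p under 0.05 by limma, 0 by voom), and 2 rises without Ednrb-/- replicate 4. The call of Gata3 is the one described above. Of 7 genes of oligodendrocyte precursors, where Olig2 is also found, 3 fell, among them Gpr17 and Sox10, the latter also a gene of peripheral glia. Hox genes of brachial and hindbrain levels rose in 7 of 9 cases, with a median of 0.83, and those of thoracic and lumbar levels fell in 4 of 15, or in 7 without Ednrb-/- replicate 1, with a median of -0.71. Of 5 tested skeletal muscle genes 3 fell and of 12 neural crest and melanoblast genes 9 fell, and the 1 blood gene tested did not pass. Their part in the levels of the motor neuron genes was not tested.

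**Figure D4:**
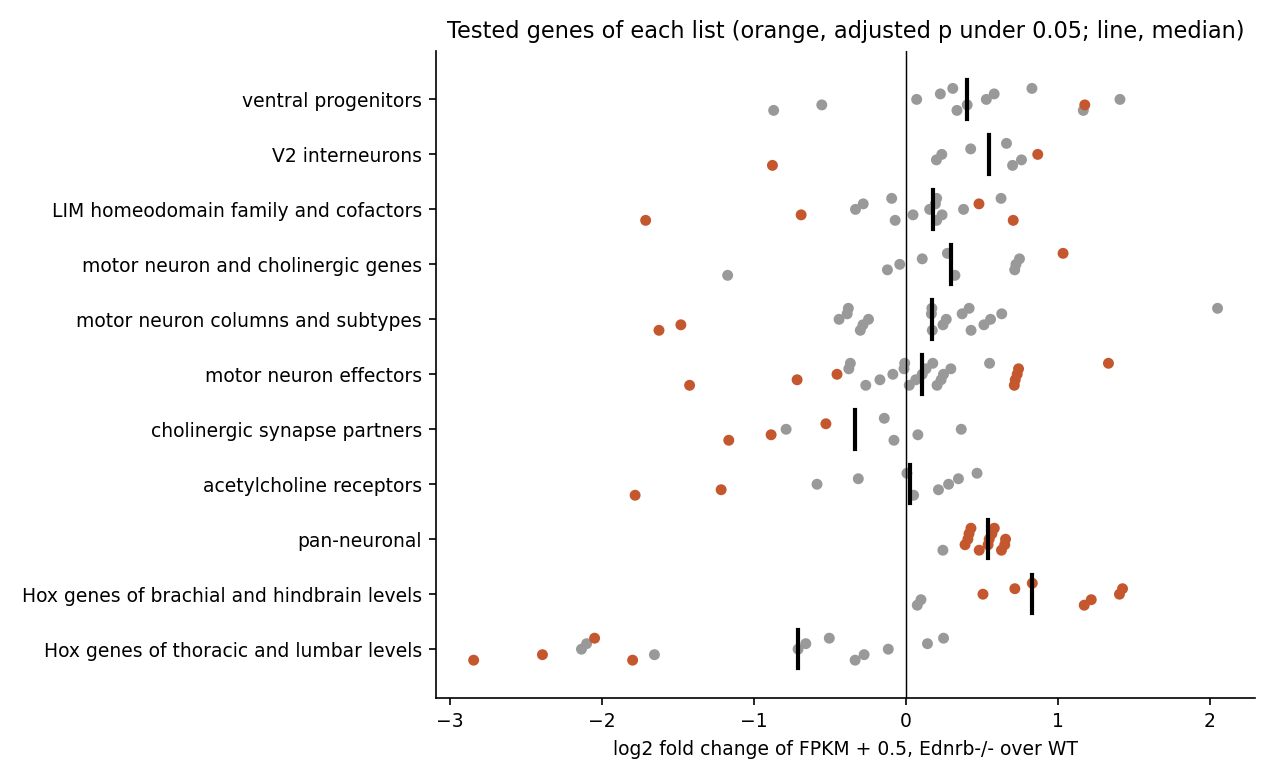
Log2 fold change (horizontal axis, Ednrb-/- over WT) of each tested gene in 11 gene lists, orange where the adjusted p was under 0.05, with the list's median as a line. The 10 motor neuron and cholinergic genes spread from -1.17 to 1.03, while the pan-neuronal genes lie close together around 0.54.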

How the data were processed

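RNA from 10 cultures was sequenced, and the authors deposited 1 table of FPKM values per gene, with 1 column per library matched to its sample by genotype and replicate number in the title; 0 further sample columns were present. Per the submitters' processing notes the tools were fastp, HISAT2 2.0.5 and featureCounts 1.5.0-p3 with the build mm10, although the gene identifiers are those of the C57BL/6NJ assembly. Settings and use of strand are not stated in these sources.

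FPKM times gene length came out as whole reads for 100% of values in each library (within 0.01 of a read). Libraries of a genotype correlated at 0.925 to 0.979 and the chi-square between their reads averaged 14.8 to 93.4 per gene, far over the noise of sampling reads. That does not show that they came from separate embryos. The titles call each library a biological replicate, and each was kept as one. P values measure the spread between these libraries.

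Genes that reached FPKM 0.5 in 5 or more of 10 libraries were fitted with limma 3.58.1 in R 4.3.3 (limma-trend, log2(FPKM + 0.5) on genotype) and adjusted by Benjamini-Hochberg at 0.05. The fit was tested on simulated data. Single genes were also tested by exact permutation over 252 assignments. The alternatives were 21 in number. Of 223 symbols in 16 further lists, 216 were found. Members and lists were chosen with earlier results of these data known. Named genes are the 10 members, the genes of each list with the lowest p (up to 4) and those that bear on a member, and the genes most like each member; others were named after their values were seen. A few named by these criteria are not reported here.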

Additional observations from a re-analysis of the deposited data

Results flagged for a closer look

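Isl1 in Ednrb-/- replicate 1, at 8.27 FPKM, stood apart from the other Ednrb-/- libraries, the next of which held 4.78 FPKM: the gap was 0.781 of the range of the 5 libraries, above Dixon's 95% critical value for 5 samples. It was the 1 case in 20 groups of 5 libraries examined, about as many as chance gives. Without that library the log2 fold change of Isl1 was -0.22 (limma, adjusted p = 0.515).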

How the results depend on the processing

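The call of Lhx3 held in 20 of 21 alternatives and was lost with the smooth muscle covariate. It held narrowly with pan-neuronal centring, at an unadjusted p of 0.0266 and an adjusted p of 0.0460 (limma). In that fit 8880 genes were called lower, which makes the adjustment lenient. The number of the 10 genes called higher was 3 under quantile normalization, with array weights and by voom, 0 with the smooth muscle covariate, and between 1 and 2 without single libraries. The number called lower, 0 at first, was 1 with a pseudocount of 1, a filter of FPKM 1, array weights or centring on the pan-neuronal mean, and between 0 and 1 without single libraries; each time the gene was Slc5a7. Over all genes the count of 2956 became 8917 with pan-neuronal centring, 1877 with the replicate block and 0 with the smooth muscle covariate (1141 at an unadjusted p under 0.05 by limma), and ran from 1898 to 3240 without single libraries (1898, 1912 and 1902 without WT replicates 3, 4 and 5). Calls split into 990 higher and 1966 lower at first, 1603 and 1730 under quantile normalization, 37 and 8880 with pan-neuronal centring, and 419 and 1458 with the block. Signs turned for genes that did not pass: Isl1 to 0.092, 0.0399 and 0.00928 under quantile normalization, array weights and voom, Olig2 to 0.0437 and 0.0571 under the first and second of these, Isl2 to -0.40, Chat to -0.18 and Ache to -0.23 with pan-neuronal centring, and Slc5a7 to 0.66 and Ache to -0.095 with the smooth muscle covariate. Without single libraries Isl1 ran from -0.216 to 0.0514, Isl2 from -0.14 to 0.42 and Olig2 from -0.38 to 0.12. The cause was not tested. Same-numbered libraries of the genotypes correlated between -0.163 and 0.153 in their deviations, and 1 of 5 WT libraries did so best with its own number, so the numbers were not taken as pairs; with the replicate block Lhx3 had an adjusted p of 0.0307 by limma. Isl2 rested on 9 to 133 reads per library and Mnx1 on 21 to 242, which limits what can be read from their folds.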
